A study of Homo sapiens with 4 samples.

Results

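MYC and 9 genes of its network were followed on arrays of OCI-Ly10 cells in which MYC had been targeted by siRNA. The genes were the dimer partner MAX, the antagonists MXD1 and MXD3, the paralogs MYCL and MYCN, the cofactors RUVBL1, RUVBL2 and TRRAP, and the MYC-binding protein gene BIN1. All features whose platform symbol named one of these genes were taken, 25 of the 15154 features on the array. All 4 arrays gave a value for 18 of these, some arrays for 6, and 1, of BIN1, was empty throughout. The symbols were current in all 25 cases.

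OCI-Ly10 is a human cell line derived from an aggressive B-cell lymphoma whose expression profile resembles activated B cells. On each array, RNA of cells electroporated with 4 uM of a pool of siRNAs against MYC carried Cy5, and RNA of control cells carried Cy3. The controls were cells electroporated in buffer without siRNA, here called no siRNA (an array at 6 h and another at 24 h), or cells given 4 uM of a nonspecific siRNA against Renilla luciferase, here called control siRNA (an array at 8 h and another at 24 h). Values are the authors' log ratios of MYC siRNA over control, taken as log2, so that 0 means no difference. The direction is likely and not stated. It rests on the dyes and on MYC itself, which lay below 0 in 13 of its 14 values, so the sign of MYC is no separate evidence of knockdown. Each combination of time and control was measured on 1 array, and 0 arrays had the dyes swapped, so a dye bias of a single feature and a response to the siRNA cannot be told apart. Values were present for 12028 to 12784 features per array, with medians between -0.034 and 0.014 and standard deviations between 0.288 and 0.447, the largest on the 24 h array against no siRNA. The ratios hold no absolute levels, so the B-cell identity of the line could not be checked.

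MYC is a transcription factor of the basic helix-loop-helix leucine zipper class that binds E-box DNA as a dimer with MAX. MXD proteins compete with MYC for MAX and recruit corepressors to the same sites, and MYCN and MYCL can take the place of MYC in other tissues. TRRAP is a scaffold of histone acetyltransferase complexes that MYC recruits, RUVBL1 and RUVBL2 are paired ATPases found in several of these complexes, and BIN1 binds the amino-terminal region of MYC and restrains its activity.

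The core E-box of MYC and MAX is CACGTG, and CACGCG, read as CGCGTG on the other strand, is a common variant. RefSeq promoter windows of GRCh38.p14 each ran from 250 bases before a gene's start to 50 after it. Those searched were 11 windows of 8 of the 10 genes. Windows of MYC and TRRAP were not among those searched, so the counts do not cover their promoters. Their absence from the search does not mean that the reference holds no window for them. CACGTG occurred on either strand in 0 of these 11 windows, against 7.26% of 35116 windows of the same length over all genes. The variant CACGCG occurred in 2 of the 11, against 11.4% of all windows. RUVBL1 and RUVBL2, whose features had the same order of times, as described below, have 2 windows each, for 2 starts. The 250 bases before 1 start of each are shown. For RUVBL2 it is the start whose window holds the variant, in capitals, 36 bases before it, while the window of the other start holds none, and neither RUVBL1 window does. The other match, in the MXD3 window, began at base 259, after the start. These are matches of letters in short windows, and they say nothing of binding.
RUVBL1 (chr3:128123813-128124062, minus strand): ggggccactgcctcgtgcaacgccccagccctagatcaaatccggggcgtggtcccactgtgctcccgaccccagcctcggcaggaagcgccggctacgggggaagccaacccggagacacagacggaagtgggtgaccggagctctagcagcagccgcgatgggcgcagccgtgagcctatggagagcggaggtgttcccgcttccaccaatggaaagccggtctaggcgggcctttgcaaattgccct
RUVBL2 (chr19:48993198-48993447, plus strand): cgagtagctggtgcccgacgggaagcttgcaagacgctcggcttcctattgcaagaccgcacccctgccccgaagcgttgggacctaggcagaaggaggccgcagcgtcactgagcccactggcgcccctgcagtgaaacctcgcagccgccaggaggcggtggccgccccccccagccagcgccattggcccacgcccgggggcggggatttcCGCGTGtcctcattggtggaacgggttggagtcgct

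The 3 MYC features with values on all arrays fell, by amounts that differed between features. Feature 29723_1 had log2 ratios of -1.55 at 6 h, -1.21 at 8 h, -1.65 at 24 h against no siRNA and -0.51 at 24 h against control siRNA. In percent of control these were 34.2%, 43.1%, 31.8% and 70.5%. Its mean was -1.23 ± 0.52 (SD, n = 4), or 42.7% of control, and 0.00984% of the 10161 features with values on all arrays had a lower mean. Feature 15841_1 was at -1.25, -0.66, -0.93 and -0.41 on the same arrays in the same order, a mean of -0.81 ± 0.36 (SD, n = 4) or 57.0% of control. The weakest reading came from 19381_1, at -0.97, -0.84, -0.52 and 0.11, a mean of -0.56 ± 0.48 (SD, n = 4) or 68.0% of control. Adjusted p over all features was 0.00631, 0.00912 and 0.0332 for these 3 features (limma). The arrays against no siRNA lacked feature 28401_1, which on those against control siRNA read -1.05 (8 h) and -0.59 (24 h). All 4 features had their highest value, the least reduction, on the 24 h array against control siRNA, as the plot of single features shows. The highest and lowest feature means of MYC were 0.674 apart, and 90.4% of the 437 genes with 3 such features had a smaller range (median 0.335). Features 29723_1 and 15841_1 passed with any array left out, while 19381_1 passed without the 24 h array against control siRNA (adjusted p = 0.0183) but not without the 6 h, the 8 h or the other 24 h array (0.139, 0.101 and 0.106).

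**Figure D1:**
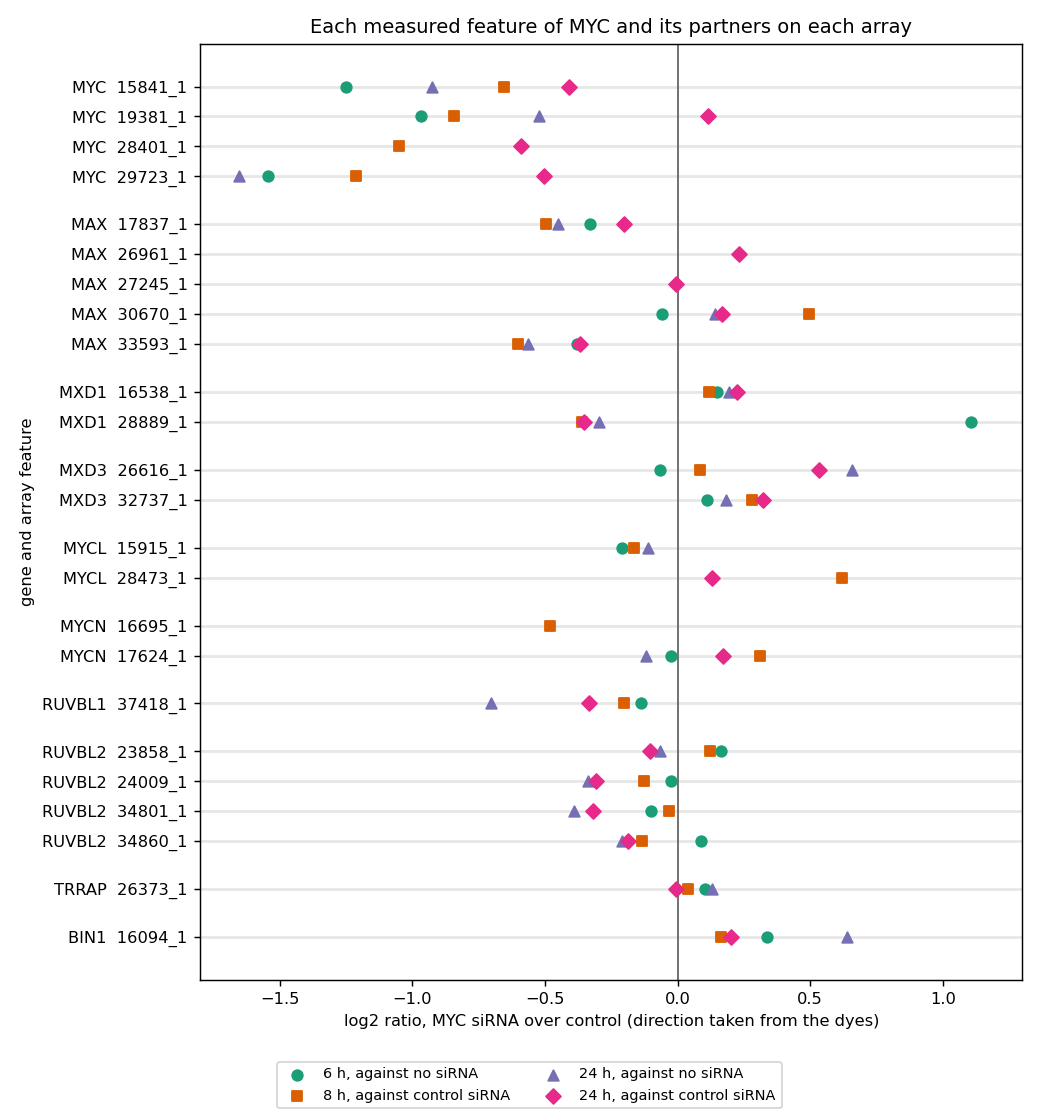
Log2 ratio of MYC siRNA over control (x axis) for the 24 features with a value, grouped by gene (y axis), with 1 symbol per array. The MYC features lie farthest to the left, and the MAX features 17837_1 and 33593_1 lie below 0 on all 4 arrays while 30670_1 lies above 0 on 3.

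Averaged over its features, MYC stood at 41.9% of control at 6 h, 52.1% at 8 h, 48.8% at 24 h against no siRNA and 78.6% at 24 h against control siRNA. The mean log2 ratio was -0.89 ± 0.39 (SD, n = 4), limma's adjusted p was 0.0146, and the exact sign-flip permutation test gave a two-sided p of 0.125, the smallest possible with 4 arrays. Leaving out the 6 h array gave -0.77 with an adjusted p of 0.053. MYC averaged -0.69 on the 24 h arrays and -1.10 on the early arrays (6 h and 8 h). The difference of 0.41 (95% confidence interval 0.01 to 0.80) did not pass after adjustment (limma, adjusted p = 0.467). Leaving out the control-siRNA array at 24 h gave 0.06, and leaving out the other 24 h array gave 0.75. MYC averaged -1.15 against no siRNA and, with feature 28401_1 read on this side only, -0.64 against control siRNA. That difference, of -0.50 (95% confidence interval -0.89 to -0.11), did not pass either (adjusted p = 0.313). It was -0.20 with the 24 h control-siRNA array left out and -0.80 with the 8 h array left out. The kind of control goes with the series of array identifiers and, among the early arrays, with time (6 h against 8 h), so these cannot be told apart.

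Of the 10 genes, MYC alone passed the test of the mean over arrays, against a background in which 15.8% of all 6798 rows and 14.8% of the 3954 named genes did (limma, adjusted p under 0.05). By direction, 10.2% of all rows were lower and 5.56% higher, and 9.71% and 5.13% of named genes. The other 9 genes had a median of 0.01, against -0.01 for all named genes. In the test of single features, 5 of the 18 complete features fell and 0 rose, 3 of MYC and 2 of MAX. Over all 10161 features 19.4% passed, 12.3% lower and 7.09% higher. Among the 68 values of the other 9 genes, 38 were below 0, and 1 was as large as 1 in size, against 5 of the 14 MYC values. In order of their means the genes ran MYC, RUVBL1, MAX, RUVBL2, MYCN, MYCL, TRRAP, MXD1, MXD3 and BIN1. Apart from MYC and RUVBL1, whose 95% intervals just separated (-1.20 to -0.59 for MYC and -0.59 to -0.10 for RUVBL1), the intervals of all neighbours in this order overlapped.

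**Figure D2:**
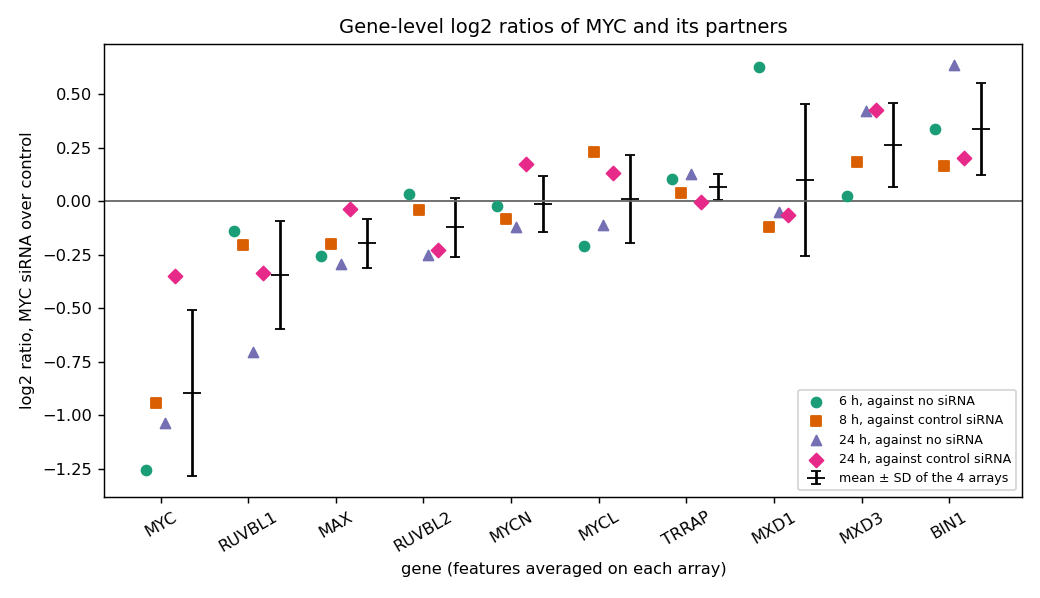
Gene-level log2 ratios (y axis, features averaged on each array) for the 10 genes in order of their mean (x axis), with 1 symbol per array and the mean ± SD of the 4 arrays in black. MYC lies between -1.26 and -0.35, and RUVBL1 and MAX are the other genes below 0 on all 4 arrays, as are 23.2% of named genes.

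**Figure D3:**
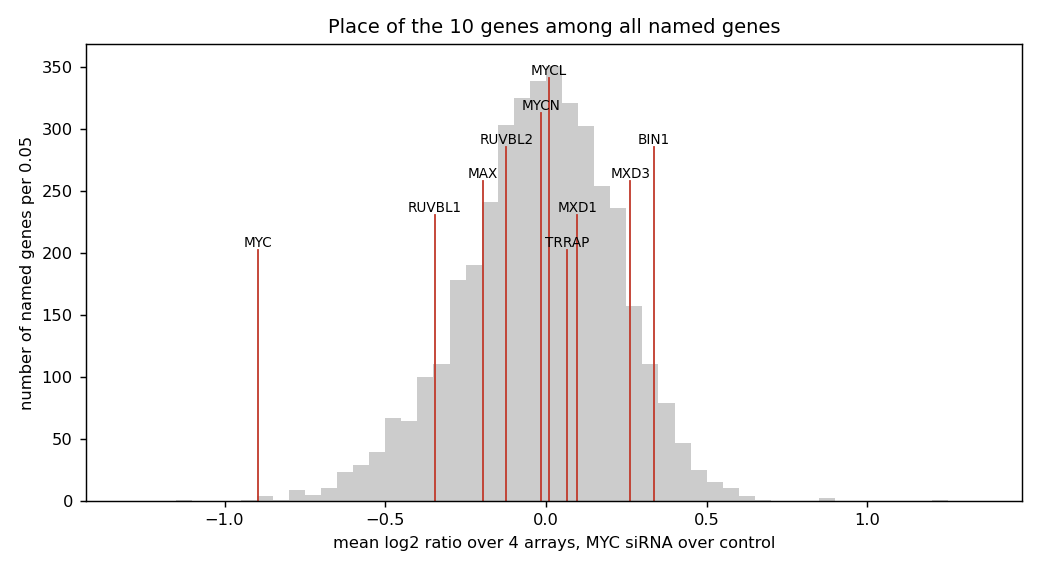
Histogram of the mean log2 ratio (x axis) of the 3954 named genes (y axis, genes per bin of 0.05), with a red line at each of the 10 genes. MYC lies in the far left tail, where 0.0506% of named genes are lower, and RUVBL1 and BIN1 lie on the shoulders, with 9.08% and 94.6% of named genes below them.

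MAX, the partner without which MYC does not bind E-boxes, was read by 5 features that disagreed. Feature 33593_1 was at -0.38 at 6 h, -0.60 at 8 h, -0.56 at 24 h against no siRNA and -0.37 at 24 h against control siRNA. Feature 17837_1 was at -0.33, -0.50, -0.45 and -0.20 in the same order. Both fell, with means of -0.48 ± 0.12 and -0.37 ± 0.13 (SD, n = 4 each) or 71.8% and 77.3% of control (limma, adjusted p = 0.0131 and 0.0281). They ranked the arrays alike, lowest on the 8 h array and highest at 24 h against control siRNA. The remaining complete feature, 30670_1, gave -0.06, 0.50, 0.14 and 0.17, with its highest value on the 8 h array, where the other two were lowest. Its mean of 0.19 ± 0.23 (SD, n = 4) did not pass (adjusted p = 0.234). Features 26961_1 and 27245_1 had a value on the 24 h array against control siRNA alone, 0.23 and -0.01. The range of the 3 complete features, 0.664, was wider than in 89.5% of the 437 genes with as many. Averaged over features, MAX was at -0.26, -0.20, -0.29 and -0.04, a mean of -0.20 ± 0.11 (SD, n = 4; adjusted p = 0.138). The last of these values includes 26961_1 and 27245_1, which were empty on the other arrays. Over complete features the mean was -0.22 (limma, adjusted p = 0.0905). With the median of the features in place of their mean it was -0.32 (adjusted p = 0.0618). The call of 33593_1 was lost on leaving out the no-siRNA array at 24 h (-0.45, adjusted p = 0.0523), and that of 17837_1 with any array left out (adjusted p from 0.0544 to 0.0877). Feature sequences were not used here, so which MAX transcripts each one reads is unknown.

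The antagonist genes MXD1 and MXD3 did not pass the test of the mean. MXD3 lay above 0 on all arrays, at 0.02 at 6 h, 0.18 at 8 h, 0.42 at 24 h against no siRNA and 0.43 at 24 h against control siRNA, as did 19.5% of named genes. Its mean was 0.26 ± 0.20 (SD, n = 4; 95% confidence interval 0.04 to 0.48; limma, adjusted p = 0.0918). With time and control as terms it passed (adjusted p = 0.0387), in a setting where 1980 of 6798 rows did, against 1073 in the main test. The high 24 h values came mainly from feature 26616_1, at -0.07, 0.09, 0.66 and 0.53 in this order of arrays. Feature 32737_1 was at 0.11, 0.28, 0.18 and 0.32. Of MXD3, then, 1 feature had both 24 h values above both early values and the other did not. That order held for 3 complete features of the genes followed here, the others being 16538_1 of MXD1 and 19381_1 of MYC. It held for 17.3% of all complete features. MXD3 averaged 0.42 on the 24 h arrays and 0.10 on the early arrays, a difference of 0.32 (95% confidence interval -0.06 to 0.71; adjusted p = 0.631).

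MXD1 had 2 features that disagreed. Their signs were opposite on all arrays but that at 6 h, where both were above 0 and lay farthest apart, so the gene average mixes opposite readings. Feature 16538_1 varied little, at 0.15 at 6 h, 0.12 at 8 h, 0.20 at 24 h against no siRNA and 0.22 at 24 h against control siRNA. Its mean was 0.17 ± 0.05 (SD, n = 4; limma, adjusted p = 0.2). Feature 28889_1 was at 1.11 at 6 h and at -0.36, -0.30 and -0.35 on the other arrays in the same order, the 1 value of at least 1 in size outside MYC. Its mean of 0.02 ± 0.72 (SD, n = 4) covers both, and without the 6 h array it was -0.34 (adjusted p = 0.0826). The gene averaged 0.10 ± 0.35 (SD, n = 4; adjusted p = 0.611), and -0.08 without the 6 h array.

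The paralogs MYCL and MYCN were measured with gaps. MYCL feature 15915_1 was at -0.21 at 6 h and -0.16 at 8 h, at 24 h it read -0.11 against no siRNA, and it was empty on the remaining array. Feature 28473_1 was empty against no siRNA and gave 0.62 (8 h) and 0.13 (24 h) against control siRNA. The gene-level values of MYCL, -0.21, 0.23, -0.11 and 0.13, thus rest on different features on different arrays, and their mean was 0.01 ± 0.20 (SD, n = 4; 95% confidence interval -0.21 to 0.23). MYCN feature 17624_1 was at -0.03, 0.31, -0.12 and 0.17, a mean of 0.08 ± 0.19 (SD, n = 4; limma, adjusted p = 0.585). Its other feature, 16695_1, gave -0.48 at 8 h and was empty elsewhere. The gene averaged -0.01 ± 0.13 (SD, n = 4; 95% confidence interval -0.21 to 0.18). No change of either paralog was detectable within these intervals. Signal over background is unknown, so whether either transcript is present in these cells cannot be said.

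RUVBL1 and RUVBL2 lay lower at 24 h than on the early arrays in each of their 5 features. RUVBL1, with 1 feature, was at -0.14 at 6 h, -0.20 at 8 h, -0.70 at 24 h against no siRNA and -0.34 at 24 h against control siRNA, or 90.8%, 86.9%, 61.4% and 79.2% of control. Its mean was -0.35 ± 0.25 (SD, n = 4; 95% confidence interval -0.59 to -0.10) and missed the threshold (limma, adjusted p = 0.0577). It passed with arrays scaled to a common spread (-0.29, adjusted p = 0.0361) and with time and control as terms (adjusted p = 0.0115). With those terms 1980 of 6798 rows passed, against 1073 in the main test. RUVBL1 averaged -0.23 without the no-siRNA array at 24 h (adjusted p = 0.171).

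RUVBL2 had 4 features on all arrays. Feature 34801_1 was at -0.10, -0.03, -0.39 and -0.32, in the order 6 h, 8 h, 24 h against no siRNA and 24 h against control siRNA. Feature 24009_1 was at -0.02, -0.13, -0.34 and -0.31, and 34860_1 at 0.09, -0.13, -0.21 and -0.19. Feature 23858_1 crossed 0, at 0.16, 0.12, -0.07 and -0.10. In each of these both 24 h values were below both early values. The 4 feature means spanned 0.239, a range smaller than in most of the 203 genes with 4 complete features (10.8% of them had a smaller one, median 0.447). The gene averaged -0.12 ± 0.14 (SD, n = 4) and did not pass (limma, adjusted p = 0.343).

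This order of times, both 24 h values below both early ones, held for 5 of 5 RUVBL features and for 0 of the other 13 complete features, among them those of MYC. It held for 19.2% of all 10161 complete features, and the features of RUVBL2 read 1 gene, so they do not count as separate cases. RUVBL1 averaged -0.52 on the 24 h arrays and -0.17 on the early arrays, a difference of -0.35 (95% confidence interval -0.75 to 0.05; limma, adjusted p = 0.589). It was -0.53 without the control-siRNA array at 24 h and -0.17 without the no-siRNA array at 24 h. For RUVBL2 the means were -0.24 at 24 h and -0.01 early, a difference of -0.23 (95% confidence interval -0.62 to 0.15; adjusted p = 0.743). Over all rows 0.118% passed this limma test, 0.0883% lower and 0.0294% higher, with 1 residual degree of freedom per row, and 0 of the 10 genes did. Of the 10, only MYC had an unadjusted p under 0.05 (0.0434), with the opposite sign, where 687 of all 6798 rows had one. By kind of control 0.0883% of rows passed, all of them lower, and again 0 of the 10 genes. MYC alone of the 10 was at an unadjusted p under 0.05 (0.0154), where 685 of all 6798 rows were.

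**Figure D4:**
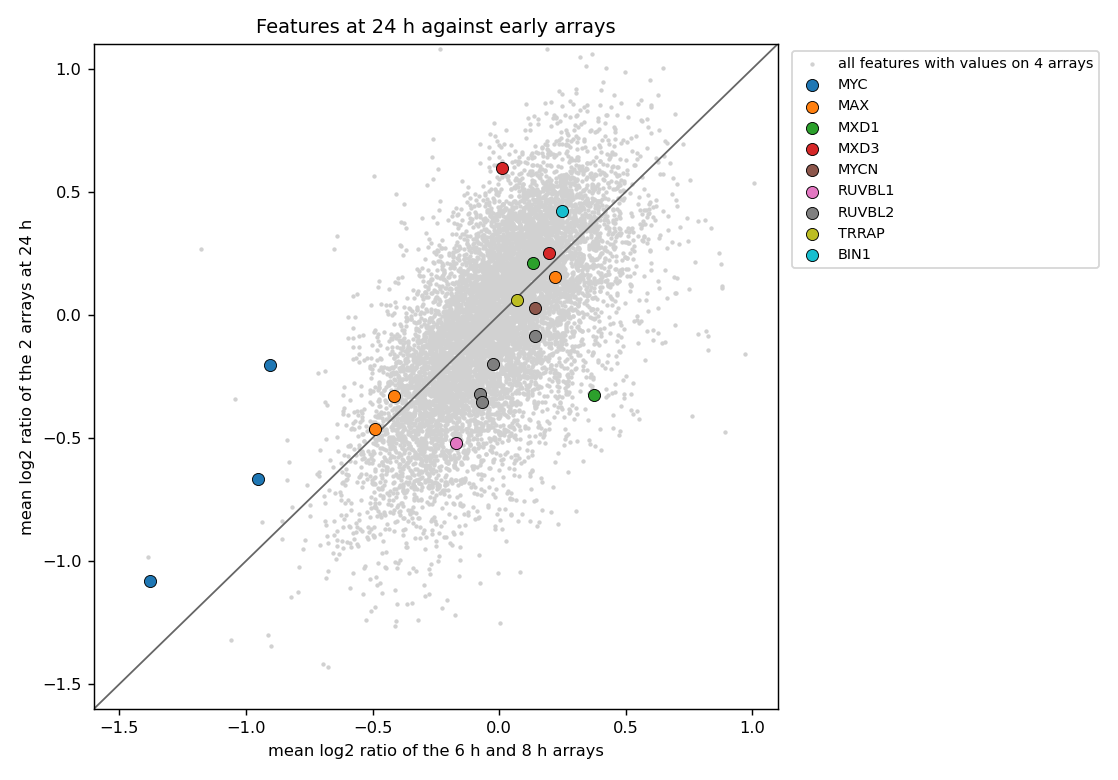
Mean log2 ratio of the 24 h arrays (y axis) against that of the 6 h and 8 h arrays (x axis) for the 18 complete features of the 10 genes, in colour, and for all complete features, in grey. Grey points outside the axes are not drawn, the line marks equal values, the MYC features lie above it and the RUVBL1 and RUVBL2 features below it.

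TRRAP varied least of the 10 genes. Its 1 feature was at 0.10 at 6 h, 0.04 at 8 h, 0.13 at 24 h against no siRNA and -0.01 at 24 h against control siRNA. The mean was 0.07 ± 0.06 (SD, n = 4; limma, adjusted p = 0.589), with a 95% confidence interval of -0.12 to 0.25.

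BIN1 had the highest mean of the 10 genes. Its 1 measured feature was at 0.34 at 6 h, 0.16 at 8 h, 0.64 at 24 h against no siRNA and 0.20 at 24 h against control siRNA, or 126%, 112%, 156% and 115% of control. All 4 values were above 0, as they were in 19.5% of named genes. The mean of 0.34 ± 0.21 (SD, n = 4; 95% confidence interval 0.11 to 0.56) lay just outside the threshold (limma, adjusted p = 0.0517). Against no siRNA the gene averaged 0.49 and against control siRNA 0.18, a difference of 0.30 (95% confidence interval -0.09 to 0.69; limma, adjusted p = 0.659). With 1 array left out this difference was 0.15 to 0.45. BIN1 passed when incomplete features were dropped before averaging (adjusted p = 0.0485). Its own values and mean were unchanged there, and 6753 rows in place of 6798 were tested. It also passed with scaled arrays (0.30, adjusted p = 0.0357) and with time and control as terms (adjusted p = 0.0121). With those terms 1980 of 6798 rows passed, against 1073 in the main test. When the no-siRNA array at 24 h, which had the widest spread, was left out, it averaged 0.23 (adjusted p = 0.155).

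Genes of the complexes that hold TRRAP, RUVBL1 and RUVBL2 were read from a list of 32 subunits of the SAGA, TIP60, INO80 and related complexes, of which 11 were tested. Of these 4 fell, 1 rose and 6 did not pass, where 9.71% of all named genes were called lower and 5.13% higher. The median was -0.16, against -0.01 for all named genes. ACTL6A, the actin-related subunit shared by TIP60 and INO80, averaged -0.41 ± 0.23, SUPT3H, of SAGA, -0.38 ± 0.13, and EP400, the motor ATPase of TIP60, -0.29 ± 0.05 (SD, n = 4 each; limma, adjusted p = 0.031, 0.0276 and 0.0405). TAF9, the fourth, averaged -0.29. INO80, the motor ATPase of the complex of that name, averaged 0.53 ± 0.17 (SD, n = 4; adjusted p = 0.0173).

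The lists of cofactors and regulators of MYC are read against the 14.8% of all named genes that passed, 9.71% lower and 5.13% higher. Of 16 tested cofactor genes 1 fell, WDR5, a MYC-binding subunit of histone methyltransferase complexes (-0.35 ± 0.21, SD, n = 4; limma, adjusted p = 0.0452), and 15 did not pass (median -0.05), SIN3A, a corepressor recruited by MXD proteins, being at 0.36. SIN3A passed when incomplete features were dropped (0.56, adjusted p = 0.0165) and with time and control as terms (adjusted p = 0.0117). In the latter setting 1980 of 6798 rows passed, against 1073 in the main test. SIN3A averaged 0.19 without the no-siRNA array at 24 h. In the list of genes of MYC turnover and modification, 0 of 13 passed in limma (median -0.16), with GSK3A at -0.38 and PPP2R5A at -0.37. At an unadjusted p under 0.05 it held 6 of the 13, where 2405 of all 6798 rows were under that limit. Both named genes passed with time and control as terms (adjusted p = 0.00627 for GSK3A and 0.00661 for PPP2R5A), as did 1980 of 6798 rows. PPP2R5A also passed when incomplete features were dropped (-0.47, adjusted p = 0.0223) and without the 8 h array (-0.52, adjusted p = 0.0464). Of 17 genes acting on the MYC gene or its mRNA 3 fell and 1 rose (median -0.10). CTCF, the insulator protein, averaged -0.60 ± 0.17, LEF1, a DNA-binding partner of beta-catenin, -0.53 ± 0.28, and HNRNPD, an mRNA-binding protein, -0.42 ± 0.15, while BCL3, a nuclear IkappaB protein, averaged 0.44 ± 0.19 (SD, n = 4 each; adjusted p from 0.0146 to 0.0232). Of the remaining dimer partners of the network, MXD4 was read against control siRNA alone, at 0.29 and 0.56 at 8 h by 2 features and at -0.04 at 24 h by 1, and was not tested.

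Of 20 tested textbook targets that MYC activates, 9 fell, 0 rose and 11 did not pass, where 9.71% of all named genes were called lower and 5.13% higher. The median was -0.28, against -0.01 for all named genes. NOP56, FKBP4, TFAM and NPM1 had the lowest means, -0.88 ± 0.55, -0.78 ± 0.48, -0.75 ± 0.37 and -0.63 ± 0.30 (SD, n = 4 each; limma, adjusted p from 0.0173 to 0.0207). PTMA was at 0.32 and CAD at 0.03. Markers of other cell types were too few to read against the 14.8% of named genes called: 0 of 5 T cell genes (median 0.17, with CD3E at 0.23 and CD8A at 0.21) and 0 of 1 myeloid gene (ITGAM, 0.09) passed in limma, 1 and 0 of them at an unadjusted p under 0.05. Of all 6798 rows, 2405 were under that unadjusted limit. Of 5 B cell genes 1 rose and 4 did not pass (median 0.10). CD79A, a chain of the B cell receptor complex, was the 1 that rose (0.41 ± 0.27, SD, n = 4; limma, adjusted p = 0.039). CD79B was at 0.20 and PAX5 at 0.10, while MS4A1 and CD22 were both at -0.06.

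**Figure D5:**
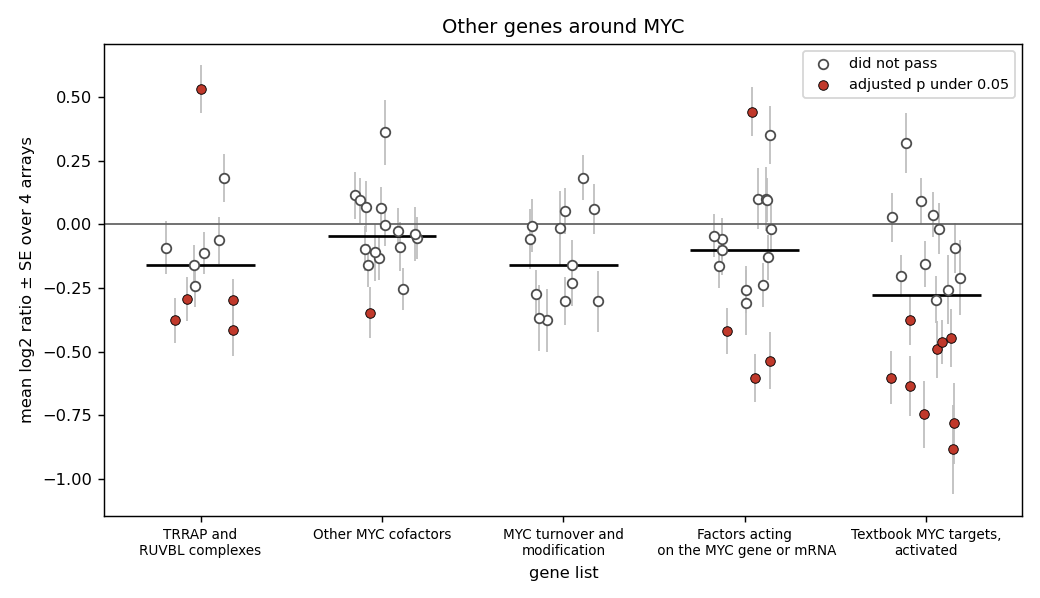
Mean log2 ratio ± SE over 4 arrays (y axis) of each tested gene in 5 lists around MYC (x axis), filled red where limma's adjusted p was under 0.05, with a black bar at each list's median. The textbook targets have the lowest median, -0.28, and 9 red points below 0.

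The genes whose 4 values were nearest to those of MYC, by Euclidean distance over the arrays among 3944 other named genes, were ETS1 (0.633), SLC25A33 (0.635), CENPH (0.708), NOL8 (0.777) and GMPS (0.794). The median distance was 1.92, and that of RUVBL1 was 1.38. ETS1, a transcription factor of lymphoid cells, was at -0.70 at 6 h, -0.72 at 8 h, -0.92 at 24 h against no siRNA and -0.18 at 24 h against control siRNA, and like MYC was highest on the last. CENPH, a kinetochore protein, was nearly level, at -0.82, -0.68, -0.78 and -0.77. The means of the 5 genes lay between -0.78 and -0.60, all above that of MYC. A distance over 4 arrays describes these arrays only.

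Of the called genes in the lists and nearest to MYC, 19 named by the rule were refitted with each array left out, TAF9 not among them. They kept their direction with any array left out, but not their side of the threshold. Each had the same sign on all arrays, so leaving out an array could not change its direction. All 19 were lost without the 6 h array (limma, adjusted p from 0.053 to 0.107), where 0 of 6798 rows passed and 2179 had an unadjusted p under 0.05. With the 24 h array against control siRNA left out, all 19 were also lost (adjusted p from 0.0518 to 0.17), where 4 rows passed, with MYC as the 1 named gene. Without the 8 h array 6 were lost, and without the 24 h array against no siRNA 9.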

How the data were processed

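The authors deposited 1 processed log ratio per feature and array, taken as log2 from its signed range around 0. How the ratios were background-corrected and normalized, their log base and direction, and why cells are empty is not given in the sources used. Signal over background is unknown. Dyes and treatments are per the labels.

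Features were named by the platform annotation, updated by Entrez ID through RefSeq (GRCh38.p14). Of 15154 features 10165 had 1 symbol, 4 several and 4985 none. Features of 1 symbol were averaged on each array, and the 6798 rows with values on all 4 arrays (3954 named genes) were tested with limma 3.58.1 in R 4.3.3, the mean against 0. Single features (10161 complete) were tested likewise. Time class (24 h minus the 6 h and 8 h arrays) and control kind were 2 terms of 1 model, with 1 residual and 17.5 prior degrees of freedom, against 3 and 6.31 for the mean, so their intervals rest mostly on the spread pooled over rows. Benjamini-Hochberg adjustment ran over all rows, at a threshold of 0.05. The labels do not say that the arrays came from separate cultures: p-values then measure only the spread of these 4 arrays. In the test of the mean that spread includes differences of time and control kind, and the rest may be technical. The small number of arrays limits the precision. The code was tested on simulated data.

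Named were the 10 genes with every feature, up to 4 called genes per list (the 2 largest where fewer than 2 passed), and the 5 genes nearest to MYC. TAF9, MXD4, PTMA, CAD, PAX5, MS4A1 and CD22 were named after their values were seen. The members and lists were chosen with earlier results of these data known. Alternatives were the rule for features, centring, scaling, the variance model, the terms and each array left out. Of the 9 lists, the dimer list had 0 genes with values on all arrays.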

Additional observations from a re-analysis of the deposited data

Results flagged for a closer look

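MXD1 stood out on the 6 h array in 2 related readings: the gene was at 0.63 there and feature 28889_1 at 1.11, each farther from the other 3 arrays than Dixon's 95% limit for 4 values. Of 28 sets of 4 values 2 exceeded it, and chance gives about 1 in 20. Since the gene value is the mean of 28889_1 and 16538_1, and the second was at 0.15 on that array, the 2 readings are 1 case.

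MYCL had the opposite sign by kind of control, below 0 on both arrays against no siRNA and above 0 on both against control siRNA, a difference of -0.34 (limma, adjusted p = 0.572). Different features contribute to the 2 sides, since 28473_1 was empty against no siRNA. MYCN feature 17624_1 likewise was below 0 on both arrays against no siRNA and above 0 on both others, a difference of -0.31 that was not tested by itself. RUVBL2 feature 23858_1 was below 0 on both 24 h arrays and above 0 on both early arrays, a difference of -0.23 that was not tested by itself.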

How the results depend on the processing

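MYC stayed below 0 under all alternatives run, between -1.08 and -0.77 with 1 array left out, and missed the threshold only without the 6 h array (-0.77, limma adjusted p = 0.053). Its gene-level value was below 0 on every array, so leaving out an array could not change its sign. The count of changed rows, 1073 for the mean, was 1980 with time and control as terms and 0 to 441 with 1 array left out. The count of changed single features, 1971, was 238 to 1245 with 1 array left out. The tests by time and by control kind called 8 and 6 rows. Centred arrays gave 61 and 87, scaled arrays 0 and 0 (limma, 534 and 614 at an unadjusted p under 0.05), and each term on its own 0 and 0 (437 and 454). Robust eBayes gave 5 by time, and leaving out 1 array gave 0 to 3 and 1 to 26. The cause of these moves was not tested.

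Values of genes near 0 changed sign in some settings. Over complete features MYCN was at 0.084. With 1 array left out, the mean was -0.079 to 0.171 for MXD1, -0.063 to 0.083 for MYCL and -0.077 to 0.021 for MYCN, and among features -0.34 to 0.153 for 28889_1 and -0.0163 to 0.072 for 23858_1. The contrasts of the 10 genes below were added after seeing the data. For 24 h minus early, MYCL was at 0.0098 with centred and 0.035 with scaled arrays, and with 1 array left out MAX was at -0.064 to 0.193, MXD1 at -0.68 to 0.064, MYCL at -0.22 to 0.22, MYCN at -0.065 to 0.227, TRRAP at -0.077 to 0.057 and BIN1 at -0.047 to 0.387. For no siRNA minus control siRNA these ranges were -0.28 to 0.12 for MXD3, -0.24 to 0.013 for MYCN, -0.43 to 0.13 for RUVBL1 and -0.12 to 0.167 for RUVBL2. No paired analysis was possible because all 4 arrays form 1 group, each already a ratio against its control.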
